A study of Mus musculus with 12 samples.

Results

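The brain of Mettl5 knockout (KO) mice was compared with that of wild-type (WT) mice in 6 RNA-seq libraries of the 12 in the series, KO from mice A, C and F and WT from mice B, D and E, with every gene of the deposited count table considered. Of 55487 genes in the table, 17188 passed the filter on low counts and were tested. The KO allele was made by deleting a floxed exon 2 with a Cre transgene driven by the CMV promoter, B6.C-Tg(CMV-cre)1Cgn/J, so that every tissue lacked the exon, on an allele built in C57BL/6 x 129S6 embryonic stem cells and backcrossed to C57BL/6. The labels name the controls WT, whereas the text of the study speaks of heterozygous controls. Age, sex and litter of these mice are not in the labels, nor is the extent of the dissection of the brain. The text of the study speaks of pairs of mice, but which KO mouse goes with which WT mouse is given nowhere, so the fits were unpaired and all p-values measure the spread between these 6 animals.

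METTL5, held stable by its partner TRMT112, places the N6-methyladenosine mark near the decoding site of the small ribosomal subunit RNA, and loss of the human gene is linked to microcephaly and intellectual disability. A brain homogenate mixes neurons, astrocytes, oligodendrocytes, microglia, vessels and choroid plexus in the proportions of the tissue that was taken. The olfactory bulb at the front and the cerebellum at the back are attached by narrow stalks, and each carries neurons with transcripts found in few other places. The axons of olfactory sensory neurons end in the bulb on mitral and tufted cells, whose output is shaped by local interneurons that arrive as migrating neuroblasts throughout life. In bulk tissue fewer cells of a type and less RNA per cell cannot be told apart.

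The brain libraries held 14403309 to 18365114 counts, and Pearson correlations of log2 CPM (counts scaled to the library total times a normalization factor, 0.835 in KO A to 1.13 in WT D) were 0.960 to 0.980 within and 0.931 to 0.981 between genotypes. Snap25, a synaptic protein gene, lay between 1001 and 1194 CPM and the myelin gene Mbp between 944 and 1579 CPM in the 6 libraries, whereas the liver gene Alb did not pass 24.3 CPM. The 2 mitochondrial rRNAs took 21.4 to 31.6% of the counts in KO and 7.63 to 17.7% in WT, without overlap (exact permutation p = 0.1, two-sided, the smallest that 3 against 3 allows), while protein-coding genes took 57.1 to 68.7% in KO and 70.2 to 82.5% in WT. KO A had the highest and WT D the lowest mitochondrial rRNA share. These same 2 libraries were the ones most often at an extreme: among genes at an unadjusted p under 0.05, KO A was the lowest library for 71.2% of those lower in KO and WT D the highest for 81.4%.

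Mettl5 itself was lower in KO without overlap. Its level was 3.33, 3.96 and 3.82 CPM in KO A, C and F and 9.09, 5.87 and 5.02 CPM in WT B, D and E. Over the whole gene the log2 fold change was -0.84 (SE 0.27), with an edgeR quasi-likelihood adjusted p of 0.373, and since the counts span all exons the deleted exon is not seen on its own. Its 3′ end on chromosome 2 (mm10) shares 649 bases with that of Ssb, the gene of the La RNA-binding protein on the opposite strand, which had 148, 99.9 and 94.9 CPM in KO and 76.0, 45.8 and 75.5 CPM in WT (adjusted p = 0.355, edgeR). TRMT112 had no such separation: Trmt112 stood at 9.47 ± 1.33 CPM (SD, n = 3) in KO and 10.8 ± 2.04 CPM (SD, n = 3) in WT.

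At an adjusted p under 0.1, 11 genes (0.064% of those tested) were called in brain by edgeR and all 11 rose in KO. The study gives the same limit on adjusted p, but its brain list leaves out some genes that pass it with DESeq2 here. Examples are Cadps2 and Exph5 (DESeq2 adjusted p = 0.000333 and 0.0014, log2 fold changes -0.81 and -0.89). Of the 11 called genes, 10 stood in the 3 lists for neurons of the olfactory bulb and the axons that reach it, and Filip1l was the exception. These lists hold 29 of the 17188 genes tested. They were made with earlier results of these data known, and the study had called all 11 genes on these same libraries, so the overlap is no independent evidence. No gene was called lower (0%), while 861 genes (5.01%) were lower and 1024 genes (5.96%) higher at an unadjusted p under 0.05. DESeq2, the tool of the study, called 135 genes higher (0.768% of genes with an adjusted p) and 132 lower (0.751%). On the same 17188 genes, a fit added after seeing the data, it called 155 higher and 131 lower. Without the filter on low counts edgeR itself called 960 of the 17188 genes, 470 higher and 490 lower. The number of calls therefore rests on the tool and, within edgeR, on the filter. Calls by edgeR below are those of the main fit unless another setting is named.

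**Figure D1:**
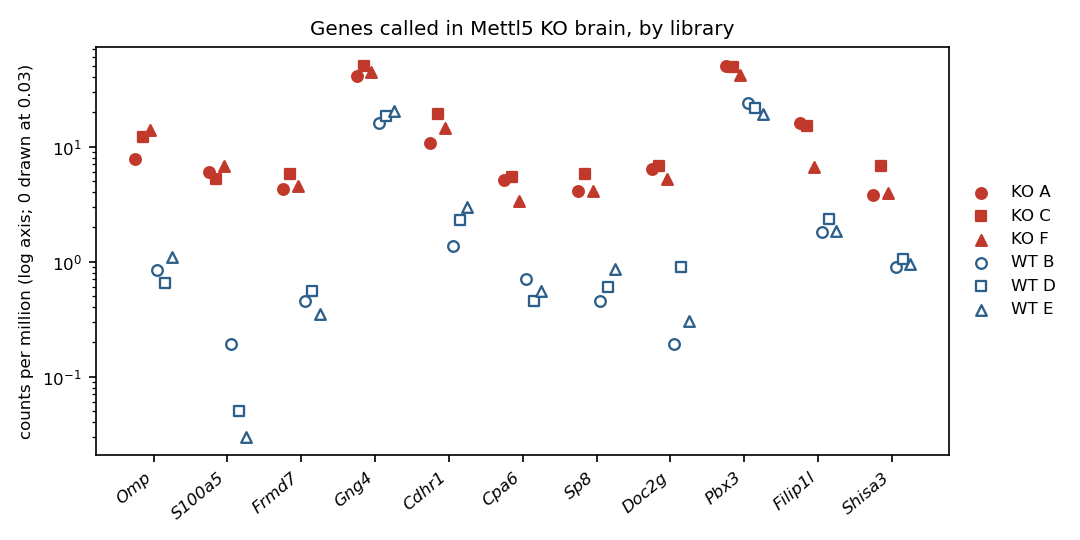
CPM on a log axis of the 11 called genes in each brain library (filled red, KO A, C and F; open blue, WT B, D and E), with the 1 library at 0 drawn at 0.03. In every gene the 3 KO libraries lie above the 3 WT libraries, from S100a5 with 5.25 to 6.72 CPM against at most 0.193 CPM to Pbx3 with 42.1 to 50.6 CPM against 19.0 to 24.0 CPM.

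Promoters of S100a5, Doc2g and Frmd7 are given because, among the called genes with a promoter in the table, these had the largest fold changes. The RefSeq sequences (GRCm38.p6) run from 250 bases before to 50 after the start of transcription. Capitals mark CCCNNGGG, the core of the site read by Ebf factors of the olfactory lineage, which reads the same on both strands.
S100a5, chr3:90608272-90608571, plus strand: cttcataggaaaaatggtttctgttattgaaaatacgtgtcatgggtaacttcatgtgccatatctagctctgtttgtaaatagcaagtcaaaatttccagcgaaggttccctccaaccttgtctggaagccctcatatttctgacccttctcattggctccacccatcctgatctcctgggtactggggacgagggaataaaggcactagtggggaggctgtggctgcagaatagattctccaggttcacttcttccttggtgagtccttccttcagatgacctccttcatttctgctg
Doc2g, chr19:4003135-4003434, plus strand: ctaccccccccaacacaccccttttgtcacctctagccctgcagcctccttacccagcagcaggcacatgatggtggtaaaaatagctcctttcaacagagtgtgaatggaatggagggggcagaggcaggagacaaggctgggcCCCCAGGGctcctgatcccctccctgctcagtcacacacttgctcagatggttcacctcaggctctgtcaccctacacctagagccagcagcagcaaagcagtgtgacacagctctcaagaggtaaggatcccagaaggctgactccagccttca
Frmd7, chrX:50942720-50943019, minus strand: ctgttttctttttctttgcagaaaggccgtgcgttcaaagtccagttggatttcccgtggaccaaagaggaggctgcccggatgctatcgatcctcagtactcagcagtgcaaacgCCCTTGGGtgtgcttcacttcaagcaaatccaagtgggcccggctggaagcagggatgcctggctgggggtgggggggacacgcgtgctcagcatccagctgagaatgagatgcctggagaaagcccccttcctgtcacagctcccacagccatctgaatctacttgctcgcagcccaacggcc
Of the 11 called genes 8 had a promoter in the table, and 4 of these (Doc2g, Filip1l, Frmd7 and Shisa3) held the motif, which 13.7% of all 32851 promoters hold. TAATTA, the core read by many homeodomain factors and likewise the same on both strands, occurred for 1 of the 8 genes, Sp8, and in 5.29% of all promoters. These matches describe the letters alone.

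Transcripts of olfactory sensory axons led the calls. Omp, the marker of mature olfactory sensory neurons (chromosome 7, 98143359 to 98145502, mm10, minus strand), had 7.72, 12.2 and 14.04 CPM in KO A, C and F and 0.838, 0.652 and 1.11 CPM in WT B, D and E. Its KO libraries were all high and its WT libraries all near 1 CPM, and on the log2 scale the gene rose by 3.70 (SE 0.32, edgeR adjusted p = 0.00674). S100a5, a calcium-binding protein of the same neurons, had 74, 73 and 102 counts in KO and 3, 1 and 0 counts in WT, at least 36.4-fold higher in KO when the WT group is set at its floor of 3 counts per library (edgeR adjusted p = 0.00674). Stoml3, which organises receptor signalling in their cilia, was at 2.68, 3.31 and 1.38 CPM in KO and 0.451, 1.05 and 0.502 CPM in WT (adjusted p = 0.32, edgeR). The median log2 fold change of the 7 genes tested was 0.78. It was 0.31 without WT D, 0.43 without WT B, 0.45 without KO C and 0.090 with no filter on low counts. The filter was applied anew in each fit without a library, so these medians need not be over the same 7 genes. Cnga2, Cnga4, Rtp1 and Rtp2, which act in the cilia or cell bodies of these neurons, were too low to test. Gng13, a G protein subunit also made by cerebellar Purkinje cells, went the other way, with 15.6 ± 3.21 CPM (SD, n = 3) in KO and 26.8 ± 6.65 CPM (SD, n = 3) in WT.

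The mitral and tufted cell list was higher throughout. All 7 members tested had a positive fold change, with a median of 2.32 on the log2 scale against -0.0016 over all genes tested, of which 49.8% were positive and 50.2% negative, and 3 members were called. Cdhr1, a cadherin of mitral and tufted cells, stood at 10.7, 19.1 and 14.5 CPM in KO and at 1.35, 2.31 and 2.96 CPM in WT, a log2 difference of 2.72 (SE 0.32, edgeR adjusted p = 0.0241). Doc2g rose by 3.65 (SE 0.46, edgeR adjusted p = 0.0309) and Shisa3 by 2.32 (SE 0.34, edgeR adjusted p = 0.0807) on the log2 scale. Tbx21, the transcription factor that marks mitral and tufted cells, had 0.975, 1.51 and 0.791 CPM in KO and at most 0.0644 CPM in WT, where 1 library had no count (adjusted p = 0.161, edgeR). Nmb, the neuropeptide of tufted cells, lay at 1.05 ± 0.229 CPM (SD, n = 3) in KO and 0.232 ± 0.0601 CPM (SD, n = 3) in WT, again without overlap.

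Of the 15 genes of bulb interneurons, 12 were positive and the median on the log2 scale was 1.05. The 5 called higher by edgeR, against 0.064% of genes tested, were Sp8, Gng4, Pbx3, Frmd7 and Cpa6. Sp8, which specifies these interneurons, had 4.15, 5.83 and 4.09 CPM in KO and 0.451, 0.602 and 0.854 CPM in WT, a log2 difference of 2.85 (SE 0.35, edgeR adjusted p = 0.0303). Gng4, a G protein gamma subunit of granule interneurons, had 41.0, 50.6 and 44.7 CPM in KO and 16.05, 18.4 and 20.4 CPM in WT, a log2 difference of 1.31 (SE 0.15, edgeR adjusted p = 0.0241). Both genes were high in KO C and separated the genotypes fully. Frmd7, a FERM domain protein gene, rose by 3.42 (SE 0.34, edgeR adjusted p = 0.0106) and the homeobox gene Pbx3 by 1.14 (SE 0.15, edgeR adjusted p = 0.0417). Etv1 and Pax6 were lower, at 48.9 ± 16.01 against 86.6 ± 8.83 CPM and 29.4 ± 11.7 against 49.8 ± 9.93 CPM (KO against WT, SD, n = 3). Both are also genes of cerebellar granule cells. Over the 3 bulb lists together, 24 of 29 members tested were positive, 20 were higher and 3 lower at an unadjusted p under 0.05, and 21 had all 3 KO libraries above all WT libraries, which 8.41% of genes tested had. Of the 33 members 14 had been called by the study on these same libraries, against 0.913% of genes tested, so their direction is no independent evidence.

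The cerebellum lists lay on the opposite side, with no call by edgeR. All 13 granule cell genes and 14 of 15 Purkinje cell genes had negative fold changes, with medians of -1.45 and -1.34 on the log2 scale, and 23 of the 28 were lower at an unadjusted p under 0.05, against 5.01% of genes tested. In 23 the 3 KO libraries lay below all WT libraries, against 7.94% of genes tested. Gabra6, a GABA-A receptor subunit confined in the brain mostly to cerebellar granule cells, had 6.18, 44.5 and 35.9 CPM in KO and 82.3, 82.8 and 56.1 CPM in WT. Cbln1, which granule cells secrete onto Purkinje cell synapses, had 9.998, 45.7 and 37.1 CPM in KO and 100, 137 and 78.2 CPM in WT (log2 fold change -1.76, SE 0.48, adjusted p = 0.355, edgeR). KO A was by far the lowest library for both.

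Purkinje cell genes repeated that order. Pcp2, the defining gene of the list, was at 2.28, 23.3 and 14.04 CPM in KO A, C and F and at 43.0, 72.1 and 38.1 CPM in WT B, D and E. Ppp1r17, a phosphatase inhibitor, had 2.52, 9.998 and 6.33 CPM in KO and 22.6, 24.9 and 19.7 CPM in WT (log2 fold change -1.82, SE 0.39, adjusted p = 0.32, edgeR). KO A was the lowest library for 13 of 13 granule cell and 14 of 15 Purkinje cell genes, and WT D the highest for 12 and 13. Without KO A the medians were -1.05 and -0.98, and without both KO A and WT D -0.78 and -0.63. DESeq2 called 11 of the 28 lower, against 0.751% of genes with an adjusted p, and none higher, and edgeR called Ppp1r17 and Rgs8 lower when KO C was left out.

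**Figure D2:**
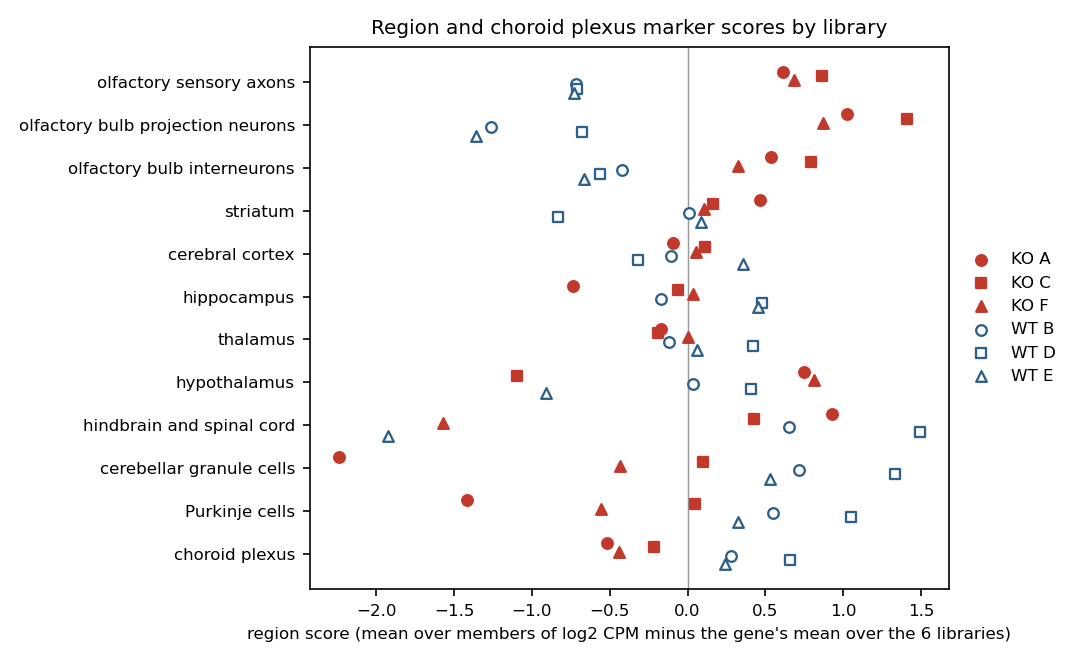
Score of each region list, and of the choroid plexus list, in each brain library (x axis, mean over list members of log2 CPM minus the mean of the gene over the 6 libraries; filled red, KO; open blue, WT). The 3 bulb lists split the genotypes with a wide gap, the cerebellar lists spread from -2.24 in KO A to 1.33 in WT D, and the hypothalamus and hindbrain lists spread widely within both genotypes.

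The scores of other regions separated the genotypes less or not at all. All 16 striatal genes had positive fold changes with a median of 0.43. Of the 16, 2 were higher at an unadjusted p under 0.05, against 5.96% of all genes tested, and WT D was the lowest library for 13. The striatal median was 0.24 without WT D and 0.03 without KO A and WT D. Drd1, the dopamine receptor of the direct pathway, had 32.6, 17.8 and 21.4 CPM in KO and 20.4, 6.17 and 17.5 CPM in WT. The cortex list had a median of 0.03 with 6 of 12 genes on each side, and it was 0.34 without WT E and -0.14 without WT D. Hippocampal genes had a median of -0.45, which ran from -0.77 without KO C to -0.19 without WT E, and Prox1, the gene of dentate granule cells and also of young cerebellar granule cells, was at 26.7 ± 7.57 CPM (SD, n = 3) in KO and 45.3 ± 8.25 CPM (SD, n = 3) in WT. Thalamic genes had a median of -0.27, or -0.10 without WT D and -0.41 without WT B. Prkcd, a kinase of thalamic and Purkinje neurons, was at 20.0 ± 2.58 against 35.9 ± 6.58 CPM (KO against WT, SD, n = 3). The log2 fold change of Prkcd was -0.84, and -0.93 with a score of the cerebellum lists in the fit. DESeq2 called Prkcd lower (adjusted p = 0.0176).

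Genes of ventral and caudal tissue varied widely between mice of 1 genotype. Of the hypothalamic genes 11 of 11 tested were positive with a median of 0.38, or 1.02 without WT D, and of the hindbrain genes 5 of 5 were negative with a median of -0.49, which turned to 0.03 without KO F and 0.38 without WT D. Oxt, the neuropeptide of magnocellular hypothalamic neurons, had 69, 0 and 81 counts in KO A, C and F and 26, 82 and 7 counts in WT B, D and E. Slc6a5, the glycine transporter of hindbrain and spinal neurons, had 7.88, 13.2 and 2.83 CPM in KO and 10.2, 26.9 and 2.76 CPM in WT, low in KO F and WT E. Hoxb3, a gene of the caudal hindbrain, had no count in those same 2 libraries and 1.08 to 2.01 CPM in the others. KO F and WT E were also the brain libraries with 9446 and 10154 Xist counts, against at most 3 in the others. Of 12 pituitary and pineal genes none passed the filter, but growth hormone Gh had 256 counts in KO F and at most 5 elsewhere, and prolactin Prl 391 counts in KO F and at most 2 elsewhere. The part of these differences between mice in the genotype comparison was not tested.

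The choroid plexus, the secretory epithelium of the ventricles, had the median farthest from 0 outside the bulb, the cerebellum and the mitochondrial rRNAs. Of 17 genes tested 16 were negative, the log2 median was -0.88, and 10 were lower at an unadjusted p under 0.05, against 5.01% of all genes tested. Ttr, the thyroxine carrier that this epithelium secretes, had 97.4, 161 and 142 CPM in KO and 245, 344 and 196 CPM in WT. Tmem72 had 2.44, 2.73 and 2.11 CPM in KO and 6.64, 6.07 and 11.2 CPM in WT (log2 fold change -1.71, SE 0.30, adjusted p = 0.19, edgeR). Slc4a5, a bicarbonate transporter, was at 1.48 ± 0.457 CPM (SD, n = 3) in KO and 4.48 ± 1.36 CPM (SD, n = 3) in WT. In all 3 the genotypes did not overlap, as in 8 of the 17 with KO below WT, against 7.94% of all genes tested, and DESeq2 called 6 of the 17 lower, against 0.751%.

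Lists of general neuronal transcripts had medians of -0.24 to 0.03. The pan-neuronal list had a median of -0.12, with 5 of 16 genes positive, and the vesicle release list -0.24, with 4 of 17 positive, while the postsynaptic density list was at 0.03. Leaving out 1 library moved the pan-neuronal median to between -0.20 (without WT B) and -0.06 (without WT E). The vesicle release median moved to between -0.41 (without WT B) and -0.12 (without WT D) and the postsynaptic median to between -0.28 (without KO C) and 0.22 (without WT E). Rbfox3, the gene of the NeuN antigen, had 92.7, 161 and 119 CPM in KO and 142, 204 and 193 CPM in WT, lowest in KO A and highest in WT D. Stmn2, a regulator of growth cone microtubules, was lower without overlap at 181 ± 10.6 against 237 ± 9.63 CPM, and Rims1, a scaffold of the presynaptic active zone, at 631 ± 12.4 against 781 ± 6.88 CPM (KO against WT, SD, n = 3, adjusted p = 0.377 and 0.432, edgeR). Immediate early genes, which report recent activity, had a median of 0.02 with 10 of 17 positive, or -0.32 without KO C and 0.20 without WT E, with Fos and Dusp1 lower at an unadjusted p under 0.05 (log2 fold changes -0.50 and -0.46, SE 0.21 and 0.15).

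Receptor subunits went both ways. An unadjusted p under 0.05 was found for 7 of 22 glutamate receptor genes and for 7 of 17 GABA and glycine receptor genes, 14 in all, against 11% of all genes tested, and those named here were picked with their values in view. The 14 had 5 lower members, including Gabra6, Gabrd, Grin2c and Grm4, which are prominent in cerebellar granule cells, and the 9 higher ones were Gabra3, Gabra5, Gabrg1, Gabrg3, Glra3, Gria3, Grm5, Grm7 and Grm8. Grm4, which sits on granule cell terminals, had 25.0, 86.7 and 47.9 CPM in KO and 96.5, 181 and 86.4 CPM in WT. Gabra5, a subunit of extrasynaptic receptors of forebrain neurons, had 55.1, 46.2 and 53.3 CPM in KO and 34.3, 29.4 and 42.8 CPM in WT. Gabra5 did not overlap between genotypes and Grm4 did, by KO C against WT E. With a score of the cerebellum lists in the fit, the log2 fold changes of Gabra6, itself in that score, and Grm4 went from -1.35 and -1.19 to 0.33 and 0.20, those of Gabra5 and Grm5 from 0.54 and 0.64 to 0.25 and 0.04, and that of Gabrd from -0.48 to -0.39.

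**Figure D3:**
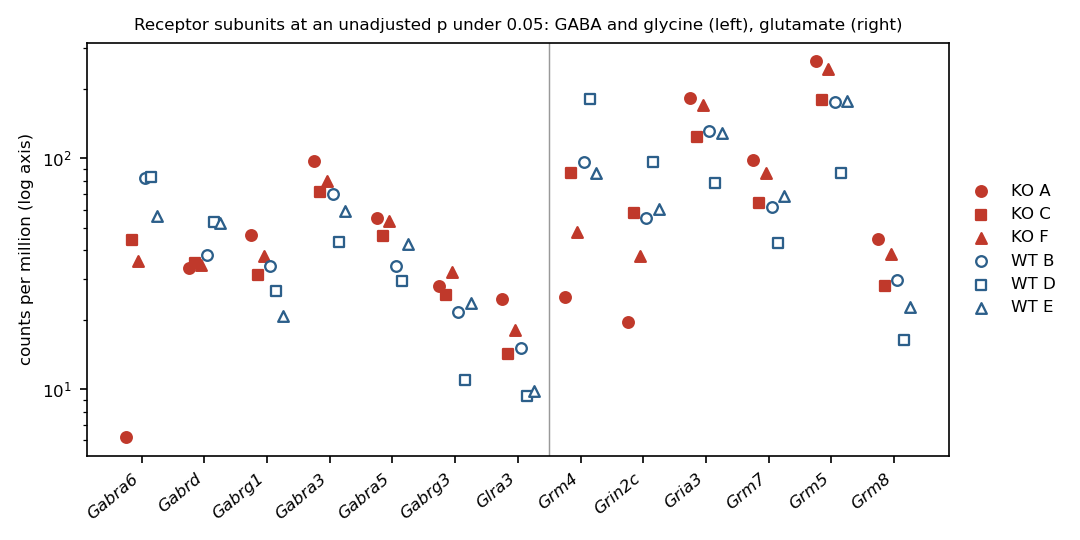
CPM on a log axis of 13 of the 14 receptor subunit genes at an unadjusted p under 0.05, GABA and glycine receptors left and glutamate receptors right of the line, in each library (filled red, KO A, C and F; open blue, WT B, D and E). KO A has the lowest Gabra6 and Grm4, at 6.18 and 25.0 CPM, and WT D the lowest Grm5 and Gabrg3.

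Inhibitory identity and neuroblast lists lay above 0, with no call by edgeR. GABAergic identity genes had a median of 0.52, with 8 of 10 positive. Gad1, the main GABA-synthesising enzyme, was nearly level at 184 ± 44.7 CPM (SD, n = 3) in KO and 171 ± 28.4 CPM (SD, n = 3) in WT, whereas Gad2, its synaptic counterpart, had 205, 148 and 169 CPM in KO and 130, 106 and 121 CPM in WT. Dlx1, a homeobox gene of interneuron progenitors and of bulb interneurons, had 11.7, 16.8 and 12.9 CPM in KO and 5.67, 2.86 and 4.62 CPM in WT, a log2 fold change of 1.66 (SE 0.27, adjusted p = 0.147, edgeR). Dcx, the microtubule protein of migrating neuroblasts, had 43.3, 37.8 and 48.1 CPM in KO and 25.7, 13.0 and 19.1 CPM in WT, a log2 fold change of 1.16 (SE 0.23, adjusted p = 0.32, edgeR). Both were higher in each KO library than in any WT library. DESeq2 called Dlx1 and Dcx higher and, of the same neuroblast list as Dcx, Nrep lower (adjusted p = 0.0225), and edgeR called Dlx1 and Dcx higher with a GC content offset.

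Within the neuroblast list, of 10 genes tested 6 lay wholly above WT and 1 wholly below, against 8.41% and 7.94% of all genes tested, with a median of 0.35. Igfbpl1, a gene of newborn neurons, had 1.48 ± 0.285 against 0.396 ± 0.390 CPM, and Sox11, which drives early neuronal genes, 29.4 ± 5.86 against 20.2 ± 3.54 CPM (KO against WT, SD, n = 3). Nrep was the opposite member, at 27.6, 64.2 and 54.0 CPM in KO and 91.4, 118 and 91.2 CPM in WT. Cycling cells gave no common shift, with a progenitor median of 0.01. Mki67, the proliferation marker, was at 1.40 ± 0.156 against 0.722 ± 0.177 CPM and Vim, the filament of progenitors and glia, at 30.4 ± 12.1 against 69.1 ± 26.6 CPM (KO against WT, SD, n = 3). Neither gene overlapped between genotypes. DESeq2 called Vim lower (adjusted p = 0.0219) and did not call Mki67 (adjusted p = 0.565).

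Interneuron subtype genes went both ways around a median of 0.06. Calb1 and Pvalb, calcium buffers of interneurons that Purkinje cells also make in quantity, were lower: Calb1 had 104, 118 and 153 CPM in KO and 222, 215 and 184 CPM in WT, and Pvalb 66.6 ± 17.8 against 123 ± 38.7 CPM (KO against WT, SD, n = 3). Adarb2, a gene of interneurons from the caudal ganglionic eminence, was higher at 43.1, 38.8 and 47.9 CPM in KO and 26.03, 25.9 and 32.4 CPM in WT. Neither direction passed the edgeR test (adjusted p = 0.32 for Calb1, 0.355 for Pvalb and 0.32 for Adarb2), whereas DESeq2 called all 3 (adjusted p = 0.0225, 0.0569 and 0.0876). Th, the enzyme of dopamine synthesis, found in midbrain neurons and in bulb interneurons, overlapped between genotypes, at 5.53, 8.42 and 4.22 CPM in KO and 1.29, 4.67 and 2.41 CPM in WT.

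**Figure D4:**
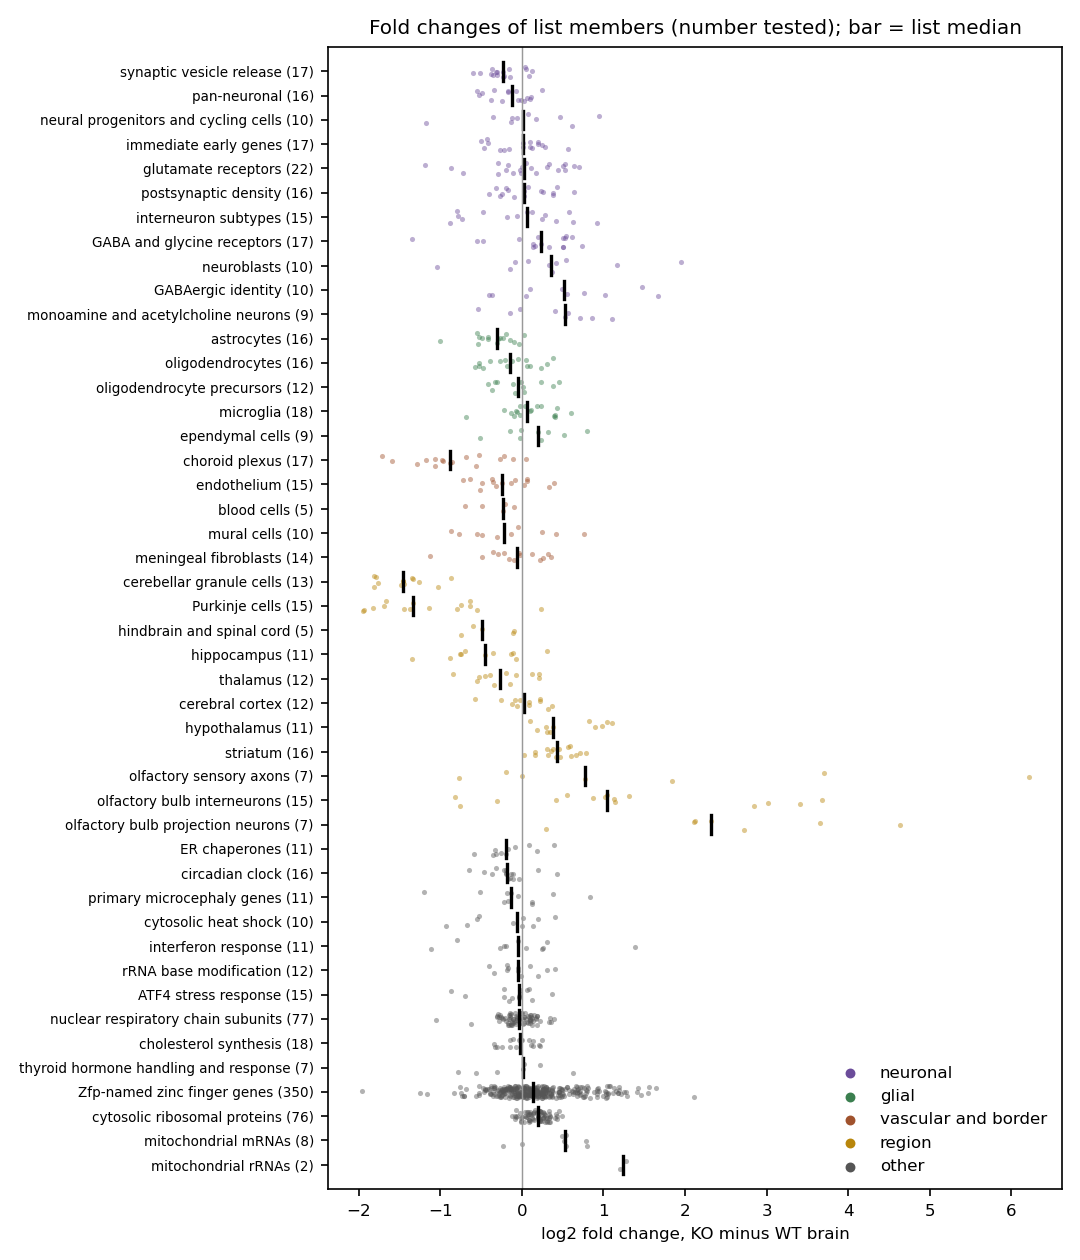
Log2 fold change, KO minus WT brain, of each tested member (points) of 46 gene lists, coloured by class, with the list median as a black bar and the number tested in brackets. Bulb lists reach medians of 0.78 to 2.32 and cerebellar lists -1.34 and -1.45, while the cerebral cortex, microglia and cholesterol synthesis medians are 0.03, 0.06 and -0.02.

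Glial lists held no gene called by edgeR or DESeq2. Astrocytes had the clearest tilt, 15 of 16 genes negative with a median of -0.30, and WT D was the highest library for 13. Gfap, the intermediate filament of reactive astrocytes, overlapped at 204, 230 and 201 CPM in KO and 199, 320 and 209 CPM in WT. S100b, a calcium-binding protein, was lower at 101 ± 9.14 against 147 ± 30.03 CPM, and the glutamate transporter Slc1a3 at 329 ± 46.9 against 438 ± 67.4 CPM (KO against WT, SD, n = 3), the latter overlapping; both transcripts are also abundant in Bergmann glia of the cerebellum. Without both KO A and WT D the astrocyte median was -0.02.

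Oligodendrocytes, their precursors and microglia gave medians of -0.15, -0.05 and 0.06. Of their 46 tested genes 1 had an unadjusted p under 0.05, against 11% of all genes tested. The oligodendrocyte median was -0.21 without WT B and -0.05 without KO F. Mbp, a structural protein of myelin, had 1184, 1381 and 944 CPM in KO and 1310, 1579 and 1152 CPM in WT. Cx3cr1, the fractalkine receptor of microglia, had 15.0, 22.8 and 13.5 CPM in KO and 14.8, 17.4 and 15.5 CPM in WT. Neither separated the genotypes. Endothelial and mural lists had medians of -0.25 and -0.22, which became 0.05 and 0.16 without KO A and WT D, and the haemoglobin and other blood cell genes had 0 of 5 tested at an unadjusted p under 0.05.

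Among programmes of the cell, those close to the function of METTL5 held no gene called by edgeR. The 12 rRNA base modification genes had a median of -0.05. Of 15 genes of the ATF4 stress response 11 were negative with a median of -0.04, and of 11 ER chaperones 8 were negative with a median of -0.19. The ATF4 score was -0.154, -0.019 and -0.039 in KO A, C and F and 0.030, 0.053 and 0.129 in WT B, D and E, and the ER chaperone score was likewise lower in each KO library than in any WT library. Aldh1l2, a mitochondrial folate enzyme in the ATF4 list and an astrocyte transcript, was the member of smallest p, at 6.58, 8.70 and 6.99 CPM in KO and 13.7, 15.9 and 11.2 CPM in WT (adjusted p = 0.32, edgeR), and DESeq2 called it lower (adjusted p = 0.0503). Primary microcephaly genes had a median of -0.13, which turned to 0.09 without KO F. Their member Cdk5rap2, a centrosome protein, was at 48.2 ± 7.52 CPM (SD, n = 3) in KO and 69.0 ± 8.65 CPM (SD, n = 3) in WT. Of 76 cytosolic ribosomal protein genes 66 were positive with a median of 0.20 and 5 were higher at an unadjusted p under 0.05, close to the 5.96% of all genes tested, while the score of the list overlapped between genotypes. Leaving out 1 library moved this median to between 0.11 (without KO A) and 0.28 (without KO C), and KO A was the highest library for 57 of the 76. Cholesterol synthesis and interferon lists stood at -0.02 and -0.05.

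Mitochondrial transcripts stood apart from the nuclear genes of the same complexes. The 77 nuclear respiratory chain genes tested had a median of -0.03. Of 8 mitochondrial mRNAs tested 7 were positive with a median of 0.53, and the rRNAs mt-Rnr1 and mt-Rnr2 had log2 fold changes of 1.21 (SE 0.37) and 1.28 (SE 0.38). The other 5 mitochondrial mRNAs had almost no counts in any library. mt-Nd4, a complex I subunit, had 2407, 1787 and 2011 CPM in KO and 1495, 901 and 1207 CPM in WT (adjusted p = 0.32, edgeR). DESeq2 called it and both rRNAs higher (adjusted p = 0.0353, 0.021 and 0.0129). With a GC content offset the mitochondrial mRNA median was 0.17, and with the mitochondrial rRNAs left out of the library size it was 0.53. Without WT D it was 0.35 and without KO A and WT D 0.22.

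Zinc finger genes named Zfp, a large family of transcriptional repressors, had 67 of 350 tested higher and 9 lower at an unadjusted p under 0.05, against 5.96% and 5.01% of all genes tested, with a median of 0.14, or 0.07 without WT D. DESeq2 called 17 of the family higher and 2 lower, against 0.768% and 0.751% of all genes with an adjusted p. WT D was the lowest library for 176 of the 350. Genes higher at an unadjusted p under 0.05 had a median exonic GC content of 42.9% and those lower 52.3%, against 48.8% for all genes tested, and 16.2% of the higher but 0.813% of the lower were loci annotated only as to be experimentally checked (TEC), against 7.41% of all genes tested. With a GC content offset the Zfp median was 0.03.

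The genes next in line for a call were partly of the same kind. Among those higher without overlap, the 10 of smallest p included Dlx1 and Tbx21 and also Panx1, a channel gene, at 10.1 ± 0.858 against 4.87 ± 0.661 CPM, and Samd9l, an interferon-induced gene, at 6.28 ± 0.978 against 2.41 ± 0.480 CPM (KO against WT, SD, n = 3). Gm24497, an snRNA gene, and Gm37677, a TEC locus, had log2 fold changes of 1.95 (SE 0.31) and 1.09 (SE 0.17); reads of snRNA genes can be split among near-identical copies. Among those lower, Cadps2, a factor for dense-core vesicle release that is strong in cerebellar granule cells, had 102, 124 and 127 CPM in KO and 204, 208 and 204 CPM in WT (log2 fold change -0.80, SE 0.13, adjusted p = 0.172, edgeR). Exph5, an effector of Rab27, had 57.6, 85.4 and 70.9 CPM in KO and 129, 138 and 125 CPM in WT (adjusted p = 0.25, edgeR). Car4, a carbonic anhydrase, was at 15.0 ± 4.53 CPM (SD, n = 3) in KO and 33.0 ± 1.72 CPM (SD, n = 3) in WT.

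How far region markers account for these programmes was examined by adding a region score to the fit. The cerebellum score shares 60.6% of its variation with genotype, because KO C at 0.07 comes close to WT E at 0.42 while KO A stands at -1.80. With this score as a covariate, genes at an unadjusted p under 0.05 went from 861 to 122 lower, 31 of them in common, and from 1024 to 485 higher, 129 in common. The share of the score with genotype by itself widens the error of each fold change. A covariate for Y-linked transcripts, present or absent in a library, costs the same degree of freedom but shares 0% with genotype, and it left 728 lower, 702 in common, and 879 higher, 833 in common. The calls kept with the cerebellum score were 5, Omp, S100a5, Frmd7, Gng4 and Cdhr1, all higher.

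With the cerebellum score in the fit 28 of 46 list medians came nearer to 0, against 26 of 46 when KO A was left out, 34 when WT D was left out and 33 without both. Among those that came nearer, the vesicle release median went from -0.24 to 0.02, astrocytes from -0.30 to 0.09, striatum from 0.43 to -0.15, ribosomal proteins from 0.20 to -0.02, mitochondrial mRNAs from 0.53 to 0.05 and choroid plexus from -0.88 to -0.31. Granule and Purkinje cell medians became 0.22 and -0.29, which the score partly fixes since it is built from those genes. Others went away from 0, such as the postsynaptic density from 0.03 to 0.28, progenitors from 0.01 to 0.31 and meningeal fibroblasts from -0.07 to 0.45. The bulb projection list went from 2.32 to 2.84 and bulb interneurons from 1.05 to 1.08, while the sensory axon list went from 0.78 to 0.39, and GABAergic identity stood at 0.43 and neuroblasts at 0.23. Dlx1 kept a log2 fold change of 1.81 and Dcx 0.90, while Gad2 had 0.16, Nrep -0.16 and Vim -0.17. Tmem72 of the choroid plexus stayed at -1.94, while Ttr went to -0.25.

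**Figure D5:**
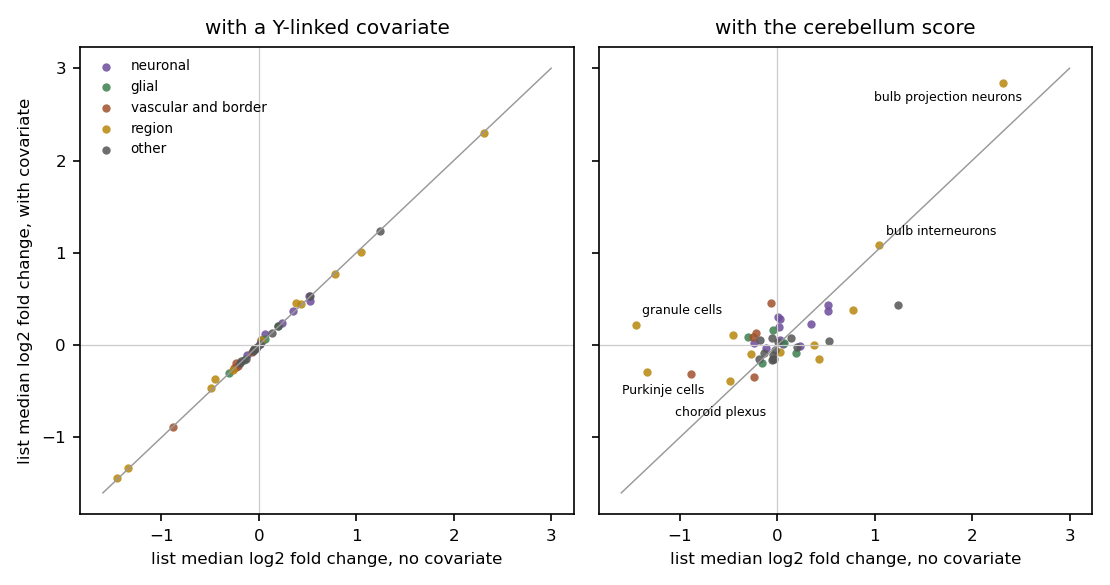
Median log2 fold change of each list without a covariate (x axis) and with a Y-linked covariate (left) or the cerebellum score (right) in the fit (y axis), coloured by class, with the line of equality. Medians keep to the line on the left, and on the right the cerebellar lists move from -1.45 and -1.34 to 0.22 and -0.29 while the bulb projection and interneuron lists go from 2.32 and 1.05 to 2.84 and 1.08 and the sensory axon list from 0.78 to 0.39.

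The olfactory bulb score cannot be used in the same way. It ran from 0.54 to 0.96 in KO and stayed below -0.62 in every WT library, and it shares 96.4% of its variation with genotype, so bulb content and genotype cannot be told apart in these 6 libraries. With this score in the fit there was no call (0 by edgeR, with 507 genes higher and 965 lower at an unadjusted p under 0.05), and the GABAergic identity and neuroblast medians stood at 0.04 and 0.15. The choroid plexus score shares 85.7% with genotype and is limited likewise. Whether Dlx1, Dcx and the other genes of migrating neuroblasts and inhibitory neurons differ beyond the bulb transcripts they accompany was therefore not tested by these libraries.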

How the data were processed

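RNA of brain was compared between 3 KO and 3 WT mice, grouped by GEO's labels. The authors made the deposited counts, whole reads per gene over exons, from stranded total RNA libraries with Trimmomatic, STAR 2.7.3a on mm10 and featureCounts in reverse-stranded mode, with FastQC 0.11.5 for quality. No rRNA or mitochondrial reads were taken out of the table.

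CPM were taken over the TMM effective library size, the counts of tested genes times the TMM factor. Total counts of 14403309 to 18365114 set the counting precision. Genes passing filterByExpr were tested with edgeR 4.0.16 (TMM, robust quasi-likelihood fit) in R 4.3.3, and p-values were adjusted by Benjamini-Hochberg across the tested genes, with 0.1 as the limit for a call. Gene lists, 47 in all, were described by counts and medians and not tested. A score is the mean over a list of log2 CPM minus the mean of each gene. Log2 CPM for scores and correlations used a prior count of 2. DESeq2 1.42.0, limma 3.58.1 voom and other settings, 22 in all, were alternatives. Fits that left out a library applied the filter anew, so the list members tested could differ between fits. A floor of 3 counts was used where a group was near 0. Scripts were tested on simulated data. Members and lists were chosen with earlier results of these data known. Named genes are Mettl5 and Ssb, all calls, the 10 higher and 10 lower non-overlapping genes of smallest p, and of each list its defining gene and up to 4 further members of smallest p, with exceptions where members at 0 or opposite to their list are given; Prl, Etv1, Pax6, Gng13, Gad1 and other members beyond that rule were chosen after their values were seen. The table has no per-library columns outside the labels. Promoters are from RefSeq. Some genes are not reported here.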

Additional observations from a re-analysis of the deposited data

How the results depend on the processing

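The main count of 11 calls became 267 with DESeq2 (286 on the genes of the main filter, a fit added after seeing the data), 1000 with no filter on low counts (960 of them among the genes of the main filter), 21 with a GC content offset, 5 with the cerebellum score, 0 with the bulb score, 1 with the choroid plexus score and 5 with the cerebellum and bulb scores together, 4 of these 5 being Y-linked genes in a fit with 2 residual degrees of freedom. Leaving out 1 library gave 2 to 23 calls, 2 without WT E (Omp and S100a5), 3 without WT B, 4 without WT D, 5 without KO F, 6 without KO A and 23 without KO C, and leaving out KO A and WT D, chosen after seeing the data, gave 6. The other settings gave 9 to 15.

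Genes at an unadjusted p under 0.05 and higher, 1024 in the main fit, were 1724 with no filter, 485 with the cerebellum score, 507 with the bulb score and 136 with both, 570 to 1516 without 1 library (570 without WT D, 577 without KO A and 624 without KO F) and 434 without KO A and WT D. Those lower, 861, were 1738, 122 with the cerebellum score and 172 with both scores, 358 to 1849 without 1 library (358 without WT D, 456 without KO F, 521 without KO A and 1849 without KO C) and 269 without KO A and WT D.

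For the 8 lists on which the report turns most (GABAergic identity, neuroblasts, astrocytes, choroid plexus, bulb projection neurons, bulb interneurons, granule and Purkinje cells), medians on the log2 scale moved by more than the spread between replicates as follows; other lists moved as well, the olfactory sensory axons to 0.090 with no filter and the striatum to 1.84 with the bulb score and -0.89 with the choroid plexus score. With the cerebellum score they were 0.23 for neuroblasts, 0.090 for astrocytes, -0.31 for choroid plexus, 2.84 for bulb projection neurons, 0.22 for granule cells and -0.29 for Purkinje cells. With the bulb score they were 0.039 for GABAergic identity, 0.15 for neuroblasts, -2.02 for astrocytes, -2.21 for choroid plexus, 1.05 for bulb projection neurons, 0.38 for bulb interneurons, -4.43 for granule cells and -4.57 for Purkinje cells, and with the choroid plexus score 0.97 for GABAergic identity, 0.18 for neuroblasts, 0.76 for astrocytes, -0.24 for choroid plexus, 3.47 for bulb projection neurons, 0.69 for granule cells and 0.31 for Purkinje cells. With both scores they were -0.22 for neuroblasts, -1.59 for astrocytes, 0.62 and -0.36 for bulb projection neurons and interneurons, 0.63 for granule cells and -0.75 for Purkinje cells. A GC content offset gave 0.18 for neuroblasts. Without KO A and WT D choroid plexus was at -0.54 and Purkinje cells at -0.63. Over the fits that left out 1 library, or KO A and WT D, the medians ran from 0.34 to 0.66 for GABAergic identity, 0.25 to 0.39 for neuroblasts, -0.48 to -0.02 for astrocytes, -1.08 (without WT E) to -0.54 for choroid plexus, 2.27 to 2.52 for bulb projection neurons, 0.85 (without KO C) to 1.22 for bulb interneurons, -1.96 to -0.78 for granule cells and -1.83 to -0.63 for Purkinje cells. Cpa6 and Pbx3 turned to -0.18 and -0.36 with both scores, Filip1l to -0.25 with the bulb score and -3.35 with both, and Shisa3 to -0.32 with the bulb score. Of 46 list medians 26 kept their sign in each of the 6 fits without 1 library and 20 did not, among them the postsynaptic density, immediate early genes, cerebral cortex, hindbrain, ATF4 and primary microcephaly lists. The causes were not tested.

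No paired analysis was possible because the letters of the mice differ between the genotypes and nothing says which KO and WT mice form a pair. The covariate for Y-linked transcripts sets KO F and WT E, with 9446 and 10154 Xist counts, apart from the others, and gave 10 calls. The cerebellar genes did not pass adjustment in the main edgeR fit at 3 mice a genotype.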
